A study of Mus musculus with 27 samples.

Results

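The proteasome genes described here are the 49 protein-coding genes, of 54532 genes in each count table, whose symbols follow the proteasome nomenclature (Psma, Psmb, Psmc, Psmd, Psme, Psmf or Psmg with a number and, at most, 1 further letter). The same 49 genes were found in both experiments. By their known place in the complex they were placed into 8 core alpha genes, 7 constitutive core beta genes, 3 immunoproteasome genes (Psmb8, Psmb9 and Psmb10), 1 thymoproteasome gene (Psmb11), 9 base genes, 8 lid genes, 5 activator genes, the regulator Psmf1, 3 assembly chaperones of the base and 4 assembly chaperones of the core. The subunits Adrm1 and Sem1, whose symbols do not begin with Psm, were outside the rule and are treated with the partner genes.

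The study asked how disulfiram (DSF) alters gene expression in B cells shortly after stimulation. B cells from the spleen of wild-type C57BL6 mice, purified by removal of the other cells, were cultured for 3 h and their poly-A RNA was sequenced. In the first experiment there were 5 groups of 4 libraries: unstimulated cells, cells with lipopolysaccharide (LPS), cells with LPS and 1 µM DSF, cells with IL-4+anti-CD40, here named IL4CD40, and cells with IL4CD40 and 1 µM DSF. Cells without DSF received the DMSO vehicle. The second experiment held 7 libraries, 1 for each of these 5 conditions and 1 each for LPS or IL4CD40 with 1 µM ibrutinib, an inhibitor of the B cell kinase BTK. There was no unstimulated group with DSF, so an effect of DSF could be measured only in stimulated cells. The labels do not say whether replicates came from separate mice or cultures. The paper calls the 4 samples behind its RNA-seq values biologically independent, without naming mice or cultures. The p-values measure only the spread between these libraries, which may be partly technical.

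The proteasome is the main protease of the cytosol and nucleus. Its core is a barrel of alpha and beta rings in which Psmb5, Psmb6 and Psmb7 carry the cutting activity. On each end sits a regulatory particle, whose base holds the ATPases that unfold the substrate and whose lid removes ubiquitin from it. In immune cells Psmb8, Psmb9 and Psmb10 can replace Psmb5, Psmb6 and Psmb7 in newly built cores, which alters the peptides made for MHC class I. The activators Psme1 and Psme2 form a cap that opens the core without ubiquitin, and both are known as interferon-induced genes. LPS acts on B cells through Toll-like receptor signalling, while IL4CD40 imitates help from T cells. DSF is a drug used against alcohol dependence, and complexes of its metabolite with copper are known to disturb the handling of ubiquitinated proteins.

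Total counts ranged from 17804851 to 23632992 in the first experiment and from 16049295 to 24619776 in the second. Levels are given as CPM, counts scaled to library size with TMM factors over all libraries of an experiment, and differences as log2 fold changes ± SE from edgeR's quasi-likelihood test, scaled within the libraries compared. A gene was called where its Benjamini-Hochberg adjusted p over all genes tested was under 0.05. The 4 unstimulated libraries fell into pairs: replicates 1 and 2 differed by a chi-square of 2.87 per gene and replicates 3 and 4 by 6.80, but libraries of different pairs by 86.7 to 93.1. In the IL4CD40 group the same pairs differed by 3.49 and 6.43 within and by 15.7 to 27.3 across, while the other groups had values of 3.40 to 10.6. Comparisons with these groups are therefore also given for the pairs. The pairs were seen in these same data, and a fit with 1 pair leaves out the spread between the pairs. Calls in such a fit are therefore easier to reach and are not further support. The share of all genes called in them is not given here. The 6 B cell markers were present in every library, with a summed level of 3008 to 8316 CPM in the first experiment and 3286 to 6268 CPM in the second. The summed T cell markers were at 0.849 to 7.26 CPM and the summed NK cell markers at 1.16 to 5.76 CPM across the first experiment. The myeloid markers, all 6 of which were detected in every library, summed to 521 to 644 CPM in unstimulated cells and to 140 to 266 CPM in the stimulated groups of the first experiment, and to 15.1 to 60.7 CPM in the second. In such bulk samples, fewer cells of a type and less RNA per cell cannot be told apart.

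Of the 49 genes, 47 passed the filter on low counts in each comparison. The others were Psma8, a core alpha gene known from the testis, which had at most 5 counts in a library, and Psmb11, known from the thymus cortex, which had at most 7. Several members overlap another gene that also had counts: Psmb8 with Gm20496, Psmb9 with Tap1, Psma3 with 3110056K07Rik, Psmb7 with Nek6, Psmd1 with Htr2b, Psmd13 with Sirt3 and Psme1 with Emc9. Psme2b is a near-identical copy of Psme2, so the division of reads between them is uncertain, and the strand setting of the counting is not given in the sources used here.

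The start-site sequences of 6 members are shown, taken from classes that moved apart under DSF. They do not represent these classes. Psmb5 was not called under DSF with either stimulus in the first experiment. Psmd12, Psmc6 and Psmb5 are among the 6 of 44 member sequences with the antioxidant response element written below. They are RefSeq sequences on GRCm38.p6, from 250 bases before to 30 after the start site. Capitals mark matches, on either strand, to an antioxidant response element written TGACNNNGC, an interferon-stimulated response element written GAAANNGAAA or an NF-kB site written GGGANNNNCC. Psmd12 of the lid (chr11:107479278-107479557, plus strand) and Psmc6 of the base (chr14:45329574-45329853, plus strand) each held the first and the third motif. Psmb5 of the constitutive core (chr14:54617966-54618245, minus strand) held the first, and the activator Psme1 (chr14:55578244-55578523, plus strand) the second. The immunoproteasome genes Psmb8 (chr17:34197945-34198224, plus strand) and Psmb10 (chr8:105938363-105938642, minus strand) held none of them in this window. The windows of Psmb8 and Psme1 lie inside the counted genes, whose first bases are 34197721 and 55578123. For these genes the sequence before the first counted base is not shown.
Psmd12: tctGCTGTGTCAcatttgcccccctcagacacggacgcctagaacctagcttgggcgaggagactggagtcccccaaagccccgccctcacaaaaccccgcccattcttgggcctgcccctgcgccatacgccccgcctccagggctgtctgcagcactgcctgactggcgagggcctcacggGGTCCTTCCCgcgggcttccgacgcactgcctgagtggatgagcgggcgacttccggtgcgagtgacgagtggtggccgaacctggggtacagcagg
Psmc6: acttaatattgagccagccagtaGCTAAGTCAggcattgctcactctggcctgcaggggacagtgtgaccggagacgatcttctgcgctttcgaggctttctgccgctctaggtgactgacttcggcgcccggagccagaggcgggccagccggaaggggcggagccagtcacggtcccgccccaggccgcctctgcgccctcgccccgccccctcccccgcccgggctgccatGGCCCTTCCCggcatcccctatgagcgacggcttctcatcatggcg
Psmb5: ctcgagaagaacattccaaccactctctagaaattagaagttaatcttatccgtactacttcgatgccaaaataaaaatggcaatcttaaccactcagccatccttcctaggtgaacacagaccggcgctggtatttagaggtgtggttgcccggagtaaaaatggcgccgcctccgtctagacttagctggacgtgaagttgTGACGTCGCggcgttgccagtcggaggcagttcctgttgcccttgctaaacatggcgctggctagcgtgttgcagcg
Psme1: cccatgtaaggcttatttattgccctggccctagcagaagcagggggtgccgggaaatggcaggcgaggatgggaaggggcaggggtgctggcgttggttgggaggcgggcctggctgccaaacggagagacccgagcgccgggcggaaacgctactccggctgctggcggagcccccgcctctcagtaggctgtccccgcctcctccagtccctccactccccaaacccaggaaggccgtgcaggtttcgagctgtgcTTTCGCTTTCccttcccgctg
Psmb8: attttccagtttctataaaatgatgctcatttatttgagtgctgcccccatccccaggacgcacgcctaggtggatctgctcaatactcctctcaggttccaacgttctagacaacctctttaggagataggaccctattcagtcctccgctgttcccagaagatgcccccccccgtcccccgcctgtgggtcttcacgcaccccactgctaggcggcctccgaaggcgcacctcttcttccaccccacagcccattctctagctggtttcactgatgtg
Psmb10: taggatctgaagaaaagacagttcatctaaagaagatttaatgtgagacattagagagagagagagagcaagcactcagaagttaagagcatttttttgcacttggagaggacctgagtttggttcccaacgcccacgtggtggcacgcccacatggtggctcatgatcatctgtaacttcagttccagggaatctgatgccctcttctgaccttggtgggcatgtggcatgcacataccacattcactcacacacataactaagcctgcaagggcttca

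Start-site sequences were at hand for 41 of the 49 members, as 44 sequences. The motifs were counted over the whole RefSeq sequences, which run from 250 bases before to 50 after the start site. The antioxidant response element stood in 6 of the 44 (13.6%, Psmb5, Psmb6, Psmc6, Psmd12, Psme4 and Psmd9) and in 12.4% of all 32851 sequences of this length. The interferon-stimulated response element stood in 5 (11.4%, Psmb3, Psmd4, Psme1, Psmd9 and Psmg4) against 3.44% of all. The NF-kB motif stood in 10 (22.7%) against 20.7%, and CCAAT, whose matches can overlap the ends of the others, in 14 (31.8%) against 37.4%. The heat shock element, searched as GAANNTTCNNGAA and TTCNNGAANNTTC, stood in none of the 44 and in 0.603% of all. These matches are a description of letters in a short window.

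Levels were compared between genes as FPKM, which divide by gene length. In unstimulated cells the highest level was that of the activator Psme1 at 85.4 ± 4.13 FPKM (SD, n = 4), followed by Psma6 of the core at 71.3 ± 7.23 FPKM and Psmc5, an ATPase of the base, at 70.0 ± 14.5 FPKM. Psme1 was above Psma6 in every library (at least 81.4 against at most 77.8 FPKM), while the ranges of Psma6 and Psmc5 overlapped. At the low end, the assembly chaperones Psmd9 and Psmg3 were at 3.00 ± 0.247 and 2.40 ± 0.243 FPKM. With LPS the activators Psme2 (174 ± 3.96 FPKM) and Psme1 (134 ± 3.83 FPKM) were among the highest, whereas with IL4CD40 the highest was Psmc5 at 157 ± 3.81 FPKM, next to the nuclear activator Psme3 at 153 ± 15.2 FPKM. With DSF, Psmc5 was the highest member under both stimuli, at 160.5 ± 7.10 FPKM with LPS and 206 ± 12.1 FPKM with IL4CD40.

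The balance of the 2 kinds of catalytic subunit was followed as the summed FPKM of Psmb8, Psmb9 and Psmb10 over that of Psmb5, Psmb6 and Psmb7. The ratio was 0.749, 0.734, 1.70 and 1.66 in unstimulated replicates 1 to 4, which are the library pairs named above. It lay between 0.876 and 0.961 with LPS and between 0.579 and 0.608 with LPS and DSF. It lay between 0.329 and 0.368 with IL4CD40 and between 0.186 and 0.203 with IL4CD40 and DSF. The 4 stimulated groups did not overlap, and under each stimulus every DSF library was below every library without DSF. In the second experiment the ratio was 1.09 in unstimulated cells, 0.453 with LPS, 0.452 with IL4CD40, 0.374 and 0.353 when DSF was added, and 0.544 and 0.567 when ibrutinib was added. The LPS value of the second experiment was thus about that of IL4CD40, unlike in the first. The single pairs did not all move alike there. Psmb8 over Psmb5 was 0.395 with LPS and 0.486 with LPS and DSF, and 0.392 and 0.39 with IL4CD40. Psmb9 over Psmb6 and Psmb10 over Psmb7 were lower with DSF under both stimuli.

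**Figure D1:**
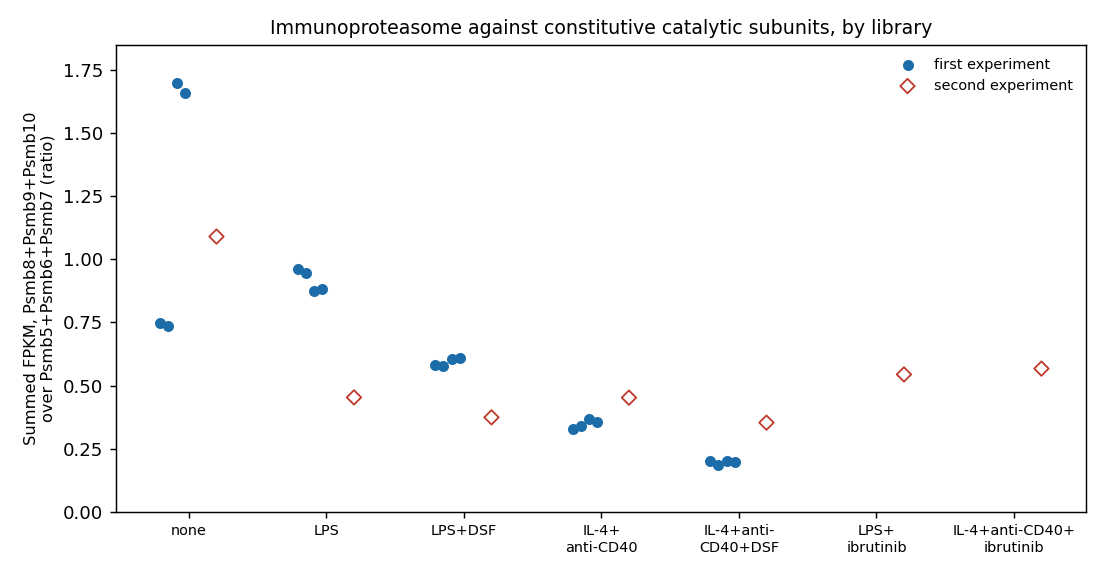
Ratio of the summed FPKM of Psmb8, Psmb9 and Psmb10 to that of Psmb5, Psmb6 and Psmb7 in each library, by condition, with the first and the second experiment marked apart. The unstimulated libraries of the first experiment split into a pair near 0.7 and a pair near 1.7, and the DSF libraries lie below those without DSF under both stimuli in both experiments.

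LPS raised most of the proteasome. Against unstimulated cells 36 of the 47 tested members rose and 0 fell, where 29.6% of all 14477 genes tested rose and 33.3% fell. The median log2 fold change of the members was 0.61, beside -0.046 over all genes. Called higher were 6 of 7 core alpha genes (median 0.73), 6 of 7 constitutive core beta genes (0.61), 8 of 9 base genes (0.50), 7 of 8 lid genes (0.75), all 5 activators (1.18), Psmf1 and 3 of 4 core assembly chaperones (0.89). None of the 3 immunoproteasome genes and none of the 3 base assembly chaperones was called, but Psmb9 was called higher by DESeq2 (0.61, adjusted p 0.0366) and in the fit of all 20 libraries (0.58, adjusted p 0.0146). With total counts in place of TMM, the median of all genes shifted to -0.27 and the members were called 25 higher and 2 lower, with 2 of 9 base genes called. Over all 14477 genes tested, 2903 were higher and 6387 lower under that scaling. Against unstimulated replicates 1 and 2 alone 41 members were higher and 2 lower, and against replicates 3 and 4 alone 41 were higher and 0 lower.

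Psme2 showed the highest fold change of the members. Its level was 110.2, 104, 71.4 and 82.1 CPM in the unstimulated libraries and 318, 313, 317 and 302 CPM with LPS, a log2 fold change of 1.77 ± 0.13 (adjusted p = 8.65e-06). Every LPS library was above the highest unstimulated library. Psme3, which forms a cap of its own in the nucleus, was at 202, 208, 145 and 143 CPM before and 407, 378, 403 and 393 CPM with LPS, a log2 fold change of 1.18 ± 0.13 (adjusted p = 7.8e-05). Its groups did not overlap either. In the core, Psma4 was at 117, 113, 84.4 and 84.4 CPM unstimulated and 192, 199, 202 and 188 CPM with LPS, a change of 0.97 ± 0.12 (adjusted p = 0.00012) on the log2 scale. In the base, the large scaffold subunit Psmd1 was at 126, 121, 71.9 and 62.2 CPM unstimulated and 162, 166, 165 and 169 CPM with LPS, a change of 0.80 ± 0.21 (adjusted p = 0.0102). For both genes unstimulated replicates 3 and 4 were the lowest libraries. Psmb5, the chymotrypsin-like subunit, was at 67.7, 61.6, 36.6 and 41.6 CPM unstimulated and 71.8, 72.2, 90.3 and 81.5 CPM with LPS, a change of 0.61 ± 0.19 (adjusted p = 0.0213), but its call was lost when unstimulated replicate 4 or LPS replicate 3 was left out (adjusted p up to 0.0589).

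For the immunoproteasome genes the values depended on the unstimulated pair. Psmb8 was at 146, 120.2, 161 and 199.6 CPM in unstimulated replicates 1 to 4 and at 183, 162, 207 and 187 CPM with LPS, a log2 fold change of 0.24 ± 0.15 (adjusted p = 0.195). Psmb9 was at 58, 60.4, 118 and 131 CPM unstimulated and 139, 136, 139.9 and 133 CPM with LPS, a change of 0.58 ± 0.26 (adjusted p = 0.0851). Psmb10 was at 63.5, 62.9, 92.9 and 96.4 CPM unstimulated and 91.4, 96.5, 96.1 and 95 CPM with LPS, a change of 0.26 ± 0.15 (adjusted p = 0.155). In all of them unstimulated replicates 1 and 2 were below replicates 3 and 4. Against replicates 1 and 2 alone all 3 genes were called higher with LPS, at 0.47, 1.21 and 0.59 for Psmb8, Psmb9 and Psmb10. Against replicates 3 and 4 alone the values were 0.066, 0.17 and 0.031, and 1 of the 3 was called. Both fits leave out the spread between the pairs, so these calls add no support to the comparison with all 4 libraries. All 3 were also called when unstimulated replicate 4 alone was left out, at 0.38, 0.80 and 0.38, and Psmb9 when replicate 3 was left out, at 0.73. The summed B cell markers were at 5305 to 5359 CPM in the first pair and 8245 to 8316 CPM in the second, and the myeloid markers at 521 to 534 and 621 to 644 CPM. Their part in these differences was not tested.

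IL4CD40 raised the constitutive proteasome too, and lowered the immunoproteasome. Against unstimulated cells 37 of 47 members rose and 3 fell, where 30.4% of 14433 genes tested rose and 32.1% fell. The median of the members was 0.80, beside -0.041 over all genes. Called higher were 6 of 7 core alpha genes (median 0.95), 6 of 7 constitutive core beta genes (0.80), all 9 base genes (0.80), all 8 lid genes (1.02), 2 of 5 activators (0.52), Psmf1, 2 of 3 base chaperones and 3 of 4 core chaperones (1.01). The 3 genes that fell were Psmb8, Psmb9 and Psmb10. Against the first pair of unstimulated libraries 39 members were higher and 4 lower, and against the second pair 39 were higher and 3 lower.

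Psmb8 was at 89.5, 84.6, 81.6 and 86.3 CPM with IL4CD40, below every unstimulated library, a log2 fold change of -0.82 ± 0.14 (adjusted p = 0.000978). Psmb9 was at 40.4, 38.4, 43.4 and 49.5 CPM, a change of -1.05 ± 0.27 (adjusted p = 0.00792), and Psmb10 was at 46.2, 51.3, 44.6 and 39.3 CPM, a change of -0.74 ± 0.17 (adjusted p = 0.00424). None of these groups overlapped. All 3 genes were called lower against either pair of unstimulated libraries, at -0.61, -0.44 and -0.45 against replicates 1 and 2 and at -1.01, -1.47 and -0.99 against replicates 3 and 4. The myeloid markers also summed lower with IL4CD40 (153 to 178 CPM) than in unstimulated cells (521 to 644 CPM). With LPS they summed to 140 to 162 CPM. Their part was not tested. Of the activators, Psme2 was at 237, 243, 198 and 202 CPM (log2 fold change 1.32 ± 0.15, adjusted p = 8.52e-05) and Psme3 at 454, 495, 428 and 409 CPM (1.41 ± 0.15, adjusted p = 4.82e-05). Psme1 was at 234, 236, 199 and 196 CPM against 183, 180.4, 202 and 198 CPM unstimulated, 0.24 ± 0.097 (adjusted p = 0.0581), and became called without IL4CD40 replicate 3 (adjusted p 0.0462), without replicate 4 (0.0288) and with DESeq2 (0.0265). In the base Psmd1 was at 201, 201, 245 and 256 CPM, a change of 1.3 ± 0.23 (adjusted p = 0.00093), and the lid deubiquitinase Psmd14 was at 141, 142, 122 and 127 CPM, a change of 1.12 ± 0.10 (adjusted p = 2.26e-05).

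Compared directly in the first experiment, the stimuli separated the immunoproteasome genes and 4 of 5 activators from the constitutive complex. With LPS against IL4CD40, 7 members were higher and 20 lower of 47, where 22.3% of 14078 genes tested were higher and 17.3% lower. The 7 were Psmb8, Psmb9, Psmb10, Psme1, Psme2, Psme2b and Psme4. Psmb9 had the largest difference at 1.68 ± 0.07 (adjusted p = 5.13e-09) on the log2 scale, followed by Psmb8 at 1.12 ± 0.07 (adjusted p = 1.37e-07) and Psmb10 at 1.07 ± 0.074 (adjusted p = 3.2e-07). In each of them all 4 LPS libraries were above all 4 IL4CD40 libraries, as the values above show. Psme1 differed by 0.49 ± 0.07 (adjusted p = 0.000145), Psme2 by 0.51 ± 0.072 (adjusted p = 0.000142) and Psme4, the activator of the nucleus, by 0.51 ± 0.048 (adjusted p = 4.51e-06). All 31 constitutive core, base and lid genes had values below 0 and 18 of them were called lower, with a median of -0.18 beside -0.0062 over all genes. They ran from -0.48 for Psmc5 to values near 0. Psme3 was the 1 activator on the lower side (-0.17 ± 0.062, adjusted p = 0.0466), and this call was lost when any of 6 libraries was left out (adjusted p up to 0.129). With total counts the median of all genes shifted to -0.14 and 34 members were lower and 7 higher. Over all 14078 genes tested, 4712 were lower and 2428 higher under that scaling. Against IL4CD40 replicates 1 and 2 alone 27 members were lower, and against replicates 3 and 4 alone 18, with 7 higher in each.

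**Figure D2:**
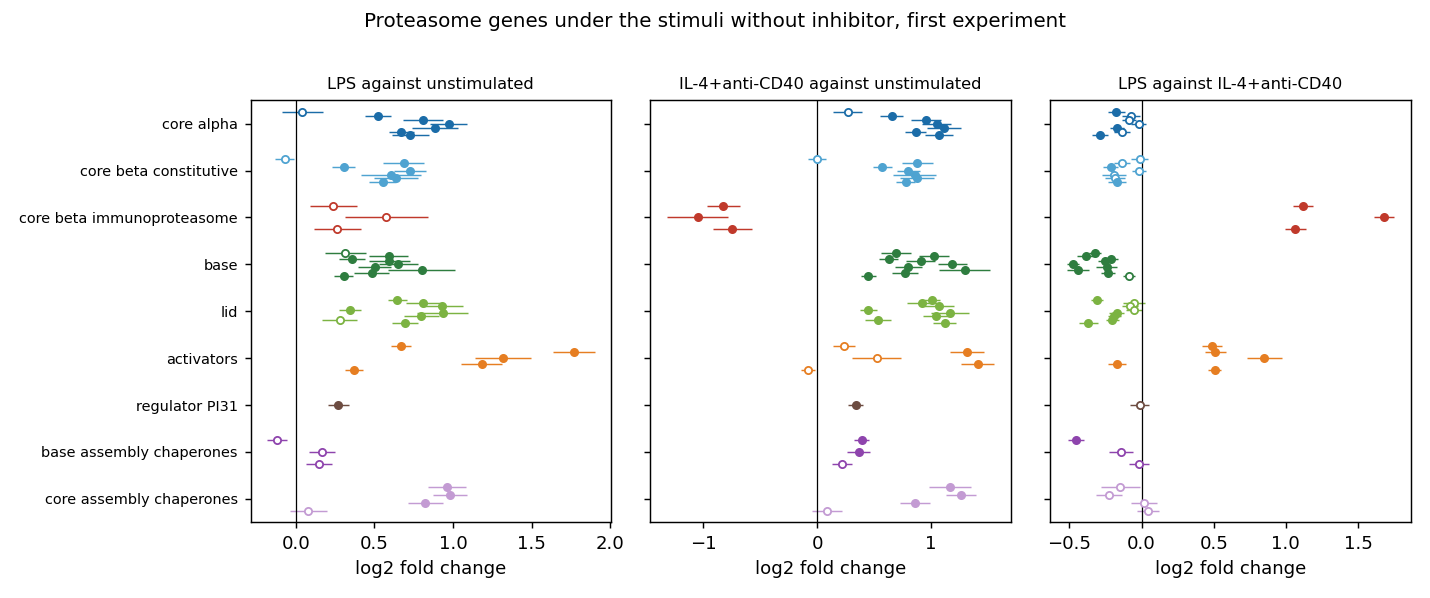
Log2 fold change ± SE of each of the 47 tested proteasome genes, by class, in the 3 comparisons between stimuli of the first experiment (n = 4 libraries a group), with filled points for adjusted p under 0.05. The immunoproteasome genes lie below 0 with IL4CD40 and above 0 in the direct comparison of LPS with IL4CD40, where the core, base and lid genes lie below 0.

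DSF split the proteasome by class. With LPS and DSF against LPS alone, 27 of 47 members rose, 17 fell and 3 were not called, where 35.1% of 14154 genes tested rose and 36.0% fell. The 27 that rose were all constitutive core, base or lid genes, while the immunoproteasome genes, the activators, Psmf1 and the assembly chaperones made up 16 of the 17 that fell. The other was the lid gene Psmd6. Because these groups were formed by the genes' known roles and read with the results in view, the split is described here by counts alone. Median log2 fold changes were 0.55 for core alpha (5 of 7 rose), 0.23 for constitutive core beta (6 of 7 rose), 0.56 for the base (9 of 9 rose) and 0.47 for the lid (7 of 8 rose), beside 0.0019 over all genes. They were -0.56 for the immunoproteasome (3 of 3 fell), -0.37 for the activators (5 of 5 fell), -0.27 for the base chaperones (3 of 3 fell) and -0.75 for the core chaperones (4 of 4 fell).

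**Figure D3:**
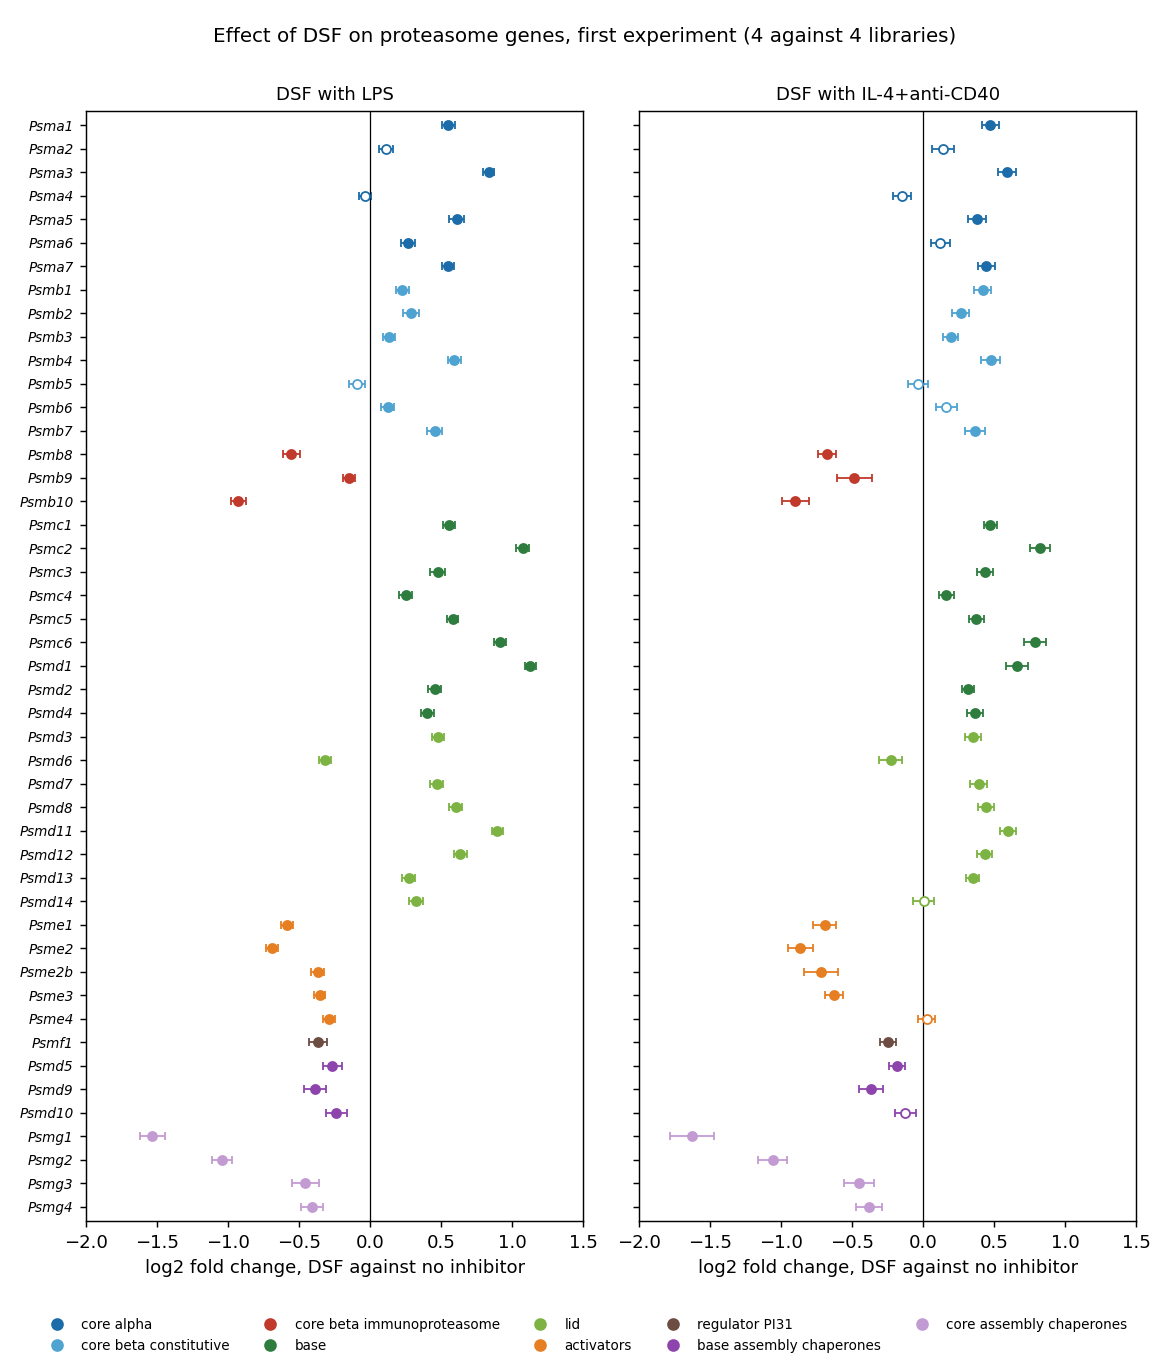
Log2 fold change ± SE under DSF of each of the 47 tested proteasome genes, by class, with LPS and with IL4CD40 (first experiment, n = 4 libraries a group), with filled points for adjusted p under 0.05. The base genes all lie above 0 and the immunoproteasome and chaperone genes below it under both stimuli.

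In the base, Psmd1 had the largest rise of all members with LPS. It was at 162, 166, 165 and 169 CPM with LPS and 335, 374, 349.6 and 371 CPM with LPS and DSF, a log2 fold change of 1.13 ± 0.04 (adjusted p = 3.82e-18). The groups were far apart, with a ratio of 2.19. The ATPase Psmc4 had the smallest rise in the base, from 124, 132, 131 and 124 CPM to 133, 155, 154 and 158 CPM, a change of 0.25 ± 0.046 (adjusted p = 3.52e-05). DSF replicate 1 stood below the other DSF libraries and next to the highest LPS library. Between these were the ATPases Psmc2 at 1.07 ± 0.044 and Psmc6, whose start-site sequence is shown above, at 0.91 ± 0.043 on the log2 scale (adjusted p = 7.06e-17 and 1.12e-15, edgeR's quasi-likelihood test). Psmd2, the second scaffold subunit, was at 0.45 ± 0.043, and the ubiquitin receptor Psmd4 at 0.40 ± 0.044.

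In the lid, Psmd11 rose most, from 182, 189, 191 and 181 CPM to 318, 344, 343 and 362 CPM, a log2 fold change of 0.90 ± 0.041 (adjusted p = 5.13e-16). All DSF libraries were above all libraries without DSF. Psmd12 was at 0.63 ± 0.046 and Psmd8 at 0.60 ± 0.044. Psmd6 moved the other way, from 107, 107, 111 and 105 CPM to 81.6, 90.8, 83 and 84.9 CPM, a change of -0.32 ± 0.043 (adjusted p = 3.89e-07). Its groups did not overlap. The deubiquitinase Psmd14 was at 97.7, 102, 111 and 99.7 CPM and 115, 127, 127 and 137 CPM, a change of 0.32 ± 0.048 (adjusted p = 1.91e-06).

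In the core, Psma3 had the largest rise, from 125, 121, 132 and 125 CPM to 216, 221, 216 and 233 CPM, a log2 fold change of 0.83 ± 0.041 (adjusted p = 2.02e-15). Psma4, also of the alpha ring, had overlapping groups at 192, 199, 202 and 188 CPM without and 176, 198, 183 and 196 CPM with DSF, -0.038 ± 0.042 (adjusted p = 0.423). Among the beta genes Psmb4, which carries no cutting activity, went from 188, 176, 196 and 192 CPM to 261, 271, 283 and 305 CPM, a change of 0.59 ± 0.045 (adjusted p = 1.73e-11). The values of the catalytic subunits were below that of Psmb4, but Psmb7 was above Psmb1, Psmb2 and Psmb3 (0.23, 0.29 and 0.13). Psmb5 was at 71.8, 72.2, 90.3 and 81.5 CPM and 69.4, 73.7, 72.9 and 75.9 CPM, -0.094 ± 0.059 (adjusted p = 0.159), and its groups overlapped. Psmb6, the caspase-like subunit, was at 123, 117, 134 and 134 CPM and 126, 138, 139 and 143 CPM, 0.12 ± 0.047 (adjusted p = 0.023). Its groups overlapped too, its call was lost when any of 5 libraries was left out (adjusted p 0.0666 to 0.257), and with total counts its value was -0.086, where the median of all genes shifted from 0.0019 to -0.21. Psmb7, the trypsin-like subunit, rose from 66.4, 64.6, 76.4 and 68.2 CPM to 87.8, 91.2, 92.4 and 101 CPM, a change of 0.45 ± 0.052 (adjusted p = 3.07e-08), with no overlap. Psmb5 became called, as a fall, when LPS replicate 1 or 2 was left out (-0.16 in each case, adjusted p 0.0209 to 0.0239).

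The immunoproteasome counterparts fell. Psmb8, which takes the place of Psmb5, went from 183, 162, 207 and 187 CPM to 114, 119, 124 and 139.8 CPM, a log2 fold change of -0.56 ± 0.059 (adjusted p = 7.48e-09). Psmb10, which takes the place of Psmb7, went from 91.4, 96.5, 96.1 and 95 CPM to 43, 51.5, 52.6 and 49.5 CPM, a change of -0.93 ± 0.052 (adjusted p = 3.56e-14), the largest fall among the 3. Psmb9, which takes the place of Psmb6, went from 139, 136, 139.9 and 133 CPM to 116, 116, 125 and 131 CPM, a change of -0.15 ± 0.043 (adjusted p = 0.00324). The groups of Psmb8, Psmb9 and Psmb10 did not overlap, though for Psmb9 they came close. When all 20 libraries shared 1 estimate of the spread, Psmb9 was not called (adjusted p 0.495).

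All 5 activators fell, counting Psme2b, whose reads are not surely divided from those of Psme2. Psme2b had a mean of 133.5 CPM with LPS and 102.0 CPM with LPS and DSF (-0.37 on the log2 scale). Psme1 went from 302, 311, 307 and 291 CPM to 191, 199.7, 196 and 210.4 CPM, a log2 fold change of -0.59 ± 0.04 (adjusted p = 1.32e-12), and its partner Psme2 from 318, 313, 317 and 302 CPM to 189, 197, 179.7 and 199 CPM, a change of -0.69 ± 0.04 (adjusted p = 7.14e-14). Neither gene's groups overlapped. Psme3 went from 407, 378, 403 and 393 CPM to 301, 309.5, 298 and 314 CPM, a change of -0.35 ± 0.039 (adjusted p = 1.09e-08). Psme4, known as the activator that takes unfolded proteins and histones, went from 135, 129, 138 and 128 CPM to 102, 114, 104 and 109 CPM, a change of -0.29 ± 0.043 (adjusted p = 1.5e-06). Psmf1, which binds the core and inhibits it in vitro, went from 41.1, 49.2, 43.9 and 46.1 CPM to 32.5, 36.6, 32.9 and 36.2 CPM, a change of -0.37 ± 0.063 (adjusted p = 1.34e-05). In each of these genes every DSF library was below every library without DSF.

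The largest fall of all members was in the assembly chaperones of the core. Psmg1, which with Psmg2 lays the alpha ring, went from 23.8, 22.5, 25 and 20.9 CPM to 8.06, 7.64, 7.84 and 7.92 CPM, a log2 fold change of -1.53 ± 0.087 (adjusted p = 4.66e-14) and a ratio of 0.345. Psmg2 was at -1.04 ± 0.07 (adjusted p = 1.14e-12, edgeR's quasi-likelihood test). Psmg4, the chaperone with the smallest change in this class, went from 18.7, 17.5, 18.9 and 17.8 CPM to 13.9, 13.6, 13.1 and 13.6 CPM, a change of -0.41 ± 0.078 (adjusted p = 5.52e-05). The chaperones of the base fell as well. Psmd9 went from 22.7, 24.7, 24.7 and 26.2 CPM to 16.4, 19.6, 18.7 and 19.4 CPM, -0.39 ± 0.075 (adjusted p = 6.14e-05), and Psmd10 from 23.4, 24.2, 26.7 and 25.6 CPM to 18.4, 22.4, 21.1 and 21.6 CPM, -0.24 ± 0.074 (adjusted p = 0.00579). In both, all DSF libraries were below all LPS libraries.

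Most of these changes were under 1.5-fold. When a change beyond 1.5-fold was required in the test, 5 members were called higher and 4 lower with LPS. The share of all genes called under this requirement is not given here, so these counts cannot be set against it. With total counts the median of all genes shifted to -0.21 and 20 members were higher and 19 lower, so that the higher share of the called members went from 61.4% to 51.3%. Over all 14154 genes tested, 4966 rose and 5096 fell with TMM, and 3473 rose and 6680 fell with total counts. Under that scaling 8 of 9 base genes and 6 of 8 lid genes were higher, while the constitutive core beta class had 2 higher and 1 lower. All 6 B cell markers fell with DSF under LPS, from a sum of 4354 to 4455 CPM to one of 3008 to 3190 CPM, and their part in the members' changes was not tested. The myeloid markers summed to 140 to 162 CPM and to 146 to 155 CPM.

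The same split by class was measured with IL4CD40. DSF raised 24 of 47 members and lowered 15, with 8 not called, where 30.1% of 14275 genes tested rose and 31.6% fell. The 24 were again constitutive core, base or lid genes. Medians were 0.38 for core alpha (4 of 7 rose), 0.26 for constitutive core beta (5 of 7 rose), 0.43 for the base (9 of 9 rose) and 0.37 for the lid (6 of 8 rose and 1 fell), beside -0.015 over all genes. They were -0.68 for the immunoproteasome (3 of 3 fell), -0.69 for the activators (4 of 5 fell) and -0.75 for the core chaperones (4 of 4 fell). Psmf1 fell (-0.25 ± 0.056, adjusted p = 0.00247), as did 2 of 3 base chaperones.

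Psmc2, an ATPase of the base, had the highest value at 0.82 ± 0.07 (adjusted p = 2.93e-06). Psmd1 went from 201, 201, 245 and 256 CPM to 379, 362, 361 and 388 CPM, a log2 fold change of 0.66 ± 0.078 (adjusted p = 2.29e-05). The libraries without DSF lay in 2 pairs, both below the DSF libraries. Psmc4 went from 153, 158, 147 and 154 CPM to 169, 173, 190.1 and 182 CPM, a change of 0.16 ± 0.051 (adjusted p = 0.0152), and its call was lost without IL4CD40 replicate 3 (adjusted p 0.0521). Psmd11 went from 199, 201, 209.9 and 232 CPM to 319, 321, 343 and 347 CPM, a change of 0.60 ± 0.057 (adjusted p = 5.44e-06), with no overlap. Psmd6 was at 124, 121, 103 and 98.8 CPM and 99.7, 93.4, 104 and 101 CPM, -0.23 ± 0.081 (adjusted p = 0.0284). Its groups overlapped, its call was lost when any of 5 libraries was left out (adjusted p 0.0544 to 0.0939), and against IL4CD40 replicates 3 and 4 alone the value was -0.061 (adjusted p 0.407). Psmd14 was at 141, 142, 122 and 127 CPM without and 141, 126, 152 and 137 CPM with DSF (adjusted p = 0.969, edgeR's quasi-likelihood test).

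In the core, Psma3 went from 135, 129.9, 130.0 and 142 CPM to 205, 193, 231 and 213 CPM, a log2 fold change of 0.59 ± 0.06 (adjusted p = 8.86e-06), and Psmb4 from 195, 193, 182 and 194 CPM to 254, 261, 309 and 285 CPM, a change of 0.48 ± 0.064 (adjusted p = 6.32e-05). Both were higher in every DSF library. Psma4 was at 199, 215, 189 and 193 CPM and 189, 172, 206 and 183 CPM, -0.15 ± 0.065 (adjusted p = 0.0685), and it became called, as a fall, without IL4CD40 replicate 4 (adjusted p 0.0481) or replicate 3 of the group with IL4CD40 and DSF (adjusted p 0.0213). Of the catalytic subunits, Psmb7 rose from 80.9, 78.4, 75.1 and 76.7 CPM to 98.3, 93.7, 114 and 112 CPM, a change of 0.37 ± 0.069 (adjusted p = 0.000729). Psmb6 was at 157, 149, 130.0 and 141 CPM and 156, 158, 186 and 175 CPM, 0.16 ± 0.076 (adjusted p = 0.0798), and became called without IL4CD40 replicate 1 (0.21, adjusted p 0.0344). Psmb5 was at 97.1, 96.2, 83.7 and 84.5 CPM and 89.1, 89.6, 98.5 and 90.9 CPM, -0.035 ± 0.068 (adjusted p = 0.675).

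Psmb8 went from 89.5, 84.6, 81.6 and 86.3 CPM to 56, 51, 60.2 and 55.8 CPM with DSF, a log2 fold change of -0.68 ± 0.061 (adjusted p = 4.36e-06). Psmb9 went from 40.4, 38.4, 43.4 and 49.5 CPM to 26.2, 27.7, 37.5 and 36.5 CPM, a change of -0.48 ± 0.12 (adjusted p = 0.00485), and Psmb10 from 46.2, 51.3, 44.6 and 39.3 CPM to 26, 22.4, 27.7 and 25.3 CPM, a change of -0.90 ± 0.094 (adjusted p = 1.01e-05). The groups did not overlap in any of them, so that the lowest immunoproteasome levels of the first experiment were in these DSF libraries. In the fit with all 20 libraries Psmb9 was not called (adjusted p 0.0856). Psme1 went from 234, 236, 199 and 196 CPM to 136, 126, 152 and 145 CPM, -0.69 ± 0.082 (adjusted p = 2.48e-05). Psme2 went from 237, 243, 198 and 202 CPM to 119.6, 112, 140.2 and 134 CPM, -0.86 ± 0.091 (adjusted p = 1.09e-05), and Psme3 from 454, 495, 428 and 409 CPM to 308, 296, 298 and 305 CPM, -0.63 ± 0.063 (adjusted p = 8.42e-06). Psme4 alone among the activators was not called, at 89.9, 95.7, 90.9 and 97.9 CPM and 109, 98.2, 95.8 and 94.1 CPM, 0.025 ± 0.059 (adjusted p = 0.732). Psmg1 went from 31.5, 28.6, 22.5 and 19.7 CPM to 8.01, 8.43, 10.1 and 7.98 CPM, a change of -1.63 ± 0.15 (adjusted p = 5.73e-06) and a ratio of 0.323.

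With either pair of IL4CD40 libraries alone, all 9 base genes were higher and all 3 immunoproteasome genes, 4 activators and 4 core chaperones lower. The members were called 24 higher and 17 lower against replicates 1 and 2, and 27 higher and 13 lower against replicates 3 and 4. With total counts, which shifted the median of all genes to -0.16, 21 members were higher and 18 lower. Over all 14275 genes tested, 3262 were higher and 5832 lower under that scaling. Of the 6 B cell markers, 4 fell with DSF, Cd79a rose (0.41 ± 0.056, adjusted p = 7.3e-05) and Ms4a1 was not called (0.11 ± 0.053, adjusted p = 0.0836). Their sum went from 3899 to 4341 CPM to 3159 to 3342 CPM with DSF and the myeloid markers from 153 to 178 CPM to 206 to 266 CPM, and their part was not tested.

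The difference between the DSF effects under the stimuli was tested directly. It was called for 6 of 47 members, 5 toward a higher value with LPS and 1 toward a lower one, where 7.92% of 15130 genes tested were higher and 6.96% lower. Psmd1 had the largest difference, 0.46 ± 0.09 (adjusted p = 0.00154) on the log2 scale, with a rise of 1.13 with LPS and 0.66 with IL4CD40. Psmd11 differed by 0.29 ± 0.071 (adjusted p = 0.00834). Psma3 (0.24 ± 0.073, adjusted p = 0.0327) and Psmd14 (0.31 ± 0.096, adjusted p = 0.0332) also differed, but each call was lost when any of 10 of the 16 libraries was left out (adjusted p up to 0.0744 and 0.0759). Psme3 differed by 0.27 ± 0.078 (adjusted p = 0.0246), the fall being smaller with LPS, and this call was lost without LPS replicate 2 (adjusted p 0.0593). Psme4 differed by -0.32 ± 0.075 (adjusted p = 0.00648) in the other direction, with a fall called under LPS and no call under IL4CD40. Psmb9, at 0.33 ± 0.13 (adjusted p = 0.0935), was not called but became so without DSF replicate 3 or 4 of the IL4CD40 group (adjusted p down to 0.0335).

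The second experiment had 1 library per condition, so its values have no replicate check and no test. A member is counted there as higher or lower where it differed by at least 1.5-fold. With LPS 20 of 47 members were higher and 2 lower than in unstimulated cells, where 18.4% of 14275 genes were higher and 21.3% lower. With IL4CD40 27 were higher and 0 lower, where 21.5% of genes were higher and 24.8% lower. All 31 constitutive core, base and lid genes had values above 0 under both stimuli, with medians of 0.60 and 0.80, beside 30 of 31 in the first experiment. The immunoproteasome genes were below 0 under both. Psmb8 was at 169 CPM unstimulated, 110.2 CPM with LPS and 115 CPM with IL4CD40. Psmb9 was at 104, 64.4 and 78.2 CPM and Psmb10 at 78.3, 53.4 and 54.6 CPM in the same order. For LPS this was unlike the first experiment, where the fold changes of these genes were above 0 though not called. The activators Psme2 (109.6 CPM unstimulated, 229 CPM with LPS) and Psme3 (177 and 407 CPM) were higher with LPS here too.

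With DSF the second experiment lay lower for nearly every member. Under LPS 1 of 47 was higher and 21 lower, where 30.1% of genes were higher and 31.6% lower, and under IL4CD40 2 were higher and 21 lower, where 32.0% were higher and 31.6% lower. Medians over the members were -0.50 and -0.52, beside -0.040 and -0.0083 over all genes. Of the 47 members, 46 had a lower value than in the first experiment under each stimulus, by a median of -0.61 with LPS and -0.59 with IL4CD40. The exception under both was the lid gene Psmd8, at 0.94 with LPS and 0.77 with IL4CD40 on the log2 scale, beside 0.60 and 0.44 in the first experiment. With LPS 16 members were above 0 in the first experiment and below 0 in the second, and with IL4CD40 19 were. The difference between the experiments was not tested, since the second has no replicates.

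Pearson's r between the experiments over the 47 members was 0.883 with LPS and 0.892 with IL4CD40, as a description over genes that share libraries. Among the highest values were again those of Psmd1, at 182 CPM with LPS and 261 CPM with DSF (0.52 on the log2 scale), and Psmd11, at 188 and 271 CPM (0.53). Psma3 was at 128 and 164 CPM (0.35). The lowest were those of Psmg2 (-2.73) and Psmg1, at 21.2 and 3.72 CPM (-2.48). With IL4CD40, Psmd1 was at 0.33, Psmd11 at 0.36, Psma3 at 0.30, Psmg2 at -2.79 and Psmg1 at -2.87.

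**Figure D4:**
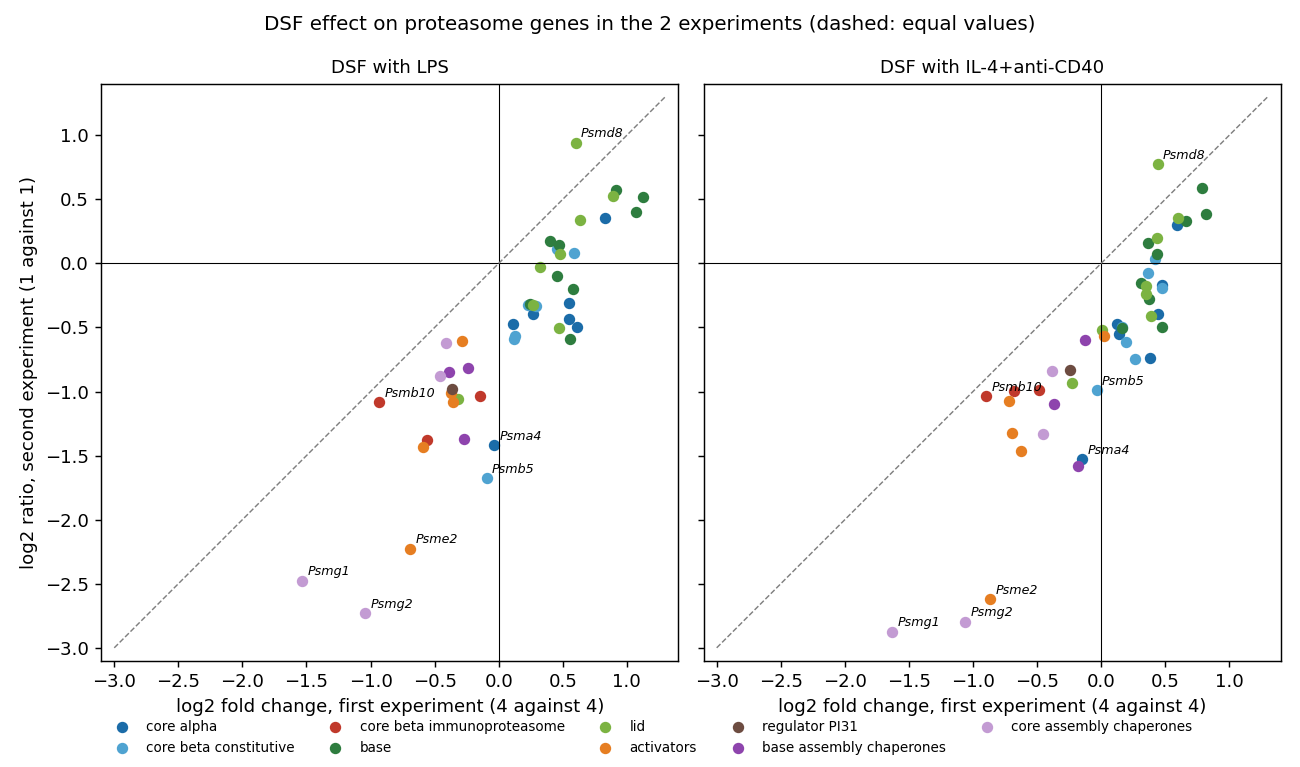
Log2 change under DSF of the 47 tested proteasome genes in the first experiment (horizontal) against the second (vertical), with LPS and with IL4CD40, by class. The dashed line marks equal values, and 46 of the 47 points in each panel lie below it.

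By class, the base had medians in the second experiment of 0.15 with LPS and 0.072 with IL4CD40 and the lid 0.024 and -0.21. With total counts the base medians were -0.16 and -0.17, beside medians over all genes of -0.34 and -0.25 under that scaling, so the base stayed above the median of all genes under both scalings. Core alpha was at -0.43 and -0.47 and constitutive core beta at -0.33 and -0.50. The immunoproteasome was at -1.08 and -0.997, the activators at -1.08 and -1.32, the base chaperones at -0.84 and -1.10 and the core chaperones at -1.68 and -2.06. Every immunoproteasome gene, every chaperone and Psmf1 was lower by at least 1.5-fold under both stimuli. Psme2 was at 229 CPM with LPS and 48.7 CPM with LPS and DSF, and Psme1 at 254 and 93.9 CPM.

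A few constitutive genes lay far lower in the second experiment. Psmb5 was at 91.8 CPM with LPS and 28.6 CPM with DSF in the second experiment (-1.68 on the log2 scale), and at 96.9 and 48.7 CPM with IL4CD40 (-0.99). In the first experiment its DSF and vehicle libraries overlapped under both stimuli. Psma4 was at 168 and 62.8 CPM with LPS (-1.42) and at 203 and 70.5 CPM with IL4CD40 (-1.53), whereas in the first experiment its DSF libraries too overlapped those with vehicle. Psmd6, which fell in the first experiment, was at 105 and 50.6 CPM with LPS (-1.06). Among the 31 constitutive core, base and lid genes these 3 had the lowest DSF values in both experiments under both stimuli. The summed myeloid, neutrophil and erythroid markers differed between the experiments too, and their part was not tested.

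With ibrutinib none of the 47 members differed by 1.5-fold from the library with the stimulus alone. Under LPS 8.15% of genes were higher and 7.55% lower with ibrutinib, and under IL4CD40 7.22% were higher and 5.88% lower. The members ran from -0.47 to 0.22 with LPS and from -0.45 to 0.24 with IL4CD40, with medians of -0.088 and -0.12. Psmb8 was at 94.8 CPM with LPS and ibrutinib and 42.3 CPM with LPS and DSF, beside 110.2 CPM with LPS alone. Psmd1 was at 172, 261 and 182 CPM in the same order, and Psmg1 at 15.3, 3.72 and 21.2 CPM. For these genes the ibrutinib library was nearer to the stimulus alone than the DSF library was. DSF and ibrutinib are different drugs given at the same dose, each with 1 library, so the difference between them was not tested.

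Genes that work with the proteasome were read from 4 lists. Of 10 partner genes, DSF raised 5 and lowered 3 with LPS and raised 4 and lowered 3 with IL4CD40. Over all genes tested, DSF raised 35.1% and lowered 36.0% with LPS and raised 30.1% and lowered 31.6% with IL4CD40, and the counts of these lists are to be read beside those shares. Adrm1, the ubiquitin receptor on the base, rose by 0.93 ± 0.047 (adjusted p = 4.07e-15) with LPS and 0.72 ± 0.065 (adjusted p = 4.12e-06) with IL4CD40 and was at 1.05 and 1.01 in the second experiment, all on the log2 scale. Txnl1, a thioredoxin-like protein bound to the regulatory particle, rose by 0.94 ± 0.048 and 0.70 ± 0.054. Pomp, the maturation factor of the core, rose by 0.67 ± 0.052 and 0.45 ± 0.058, unlike the 4 Psmg chaperones, which fell, but was at 0.13 and -0.14 in the second experiment.

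Nfe2l1 encodes the factor known to raise proteasome genes when the proteasome is impaired. Of its 6-gene list, 3 rose and 3 fell with DSF under LPS, and 1 rose and 3 fell under IL4CD40, beside the same shares of all genes. Nfe2l1 itself was at 0.29 ± 0.039 (adjusted p = 4.01e-07) with LPS and at -0.0015 ± 0.047 (adjusted p = 0.981) with IL4CD40. Vcp, the ATPase that extracts proteins from membranes, rose by 1.24 ± 0.045 and 0.88 ± 0.078, and Sel1l, of the endoplasmic reticulum's degradation machinery, was lower at -0.56 ± 0.043 and -0.47 ± 0.049. Of 11 ubiquitin and shuttle genes, 7 rose and 2 fell with LPS and 5 rose and 2 fell with IL4CD40, where 35.1% and 30.1% of all genes rose and 36.0% and 31.6% fell. Zfand2a, a stress-induced proteasome-binding protein, rose by 3.6 ± 0.058 (adjusted p = 7.51e-25) with LPS and 2.58 ± 0.24 (adjusted p = 5.27e-06) with IL4CD40. It was also higher in the second experiment, at 4.61 and 4.15. Ubb, a gene of polyubiquitin, went from 492, 493, 594 and 591 CPM to 2157, 2398, 2467 and 2690 CPM with LPS, a log2 fold change of 2.18 ± 0.064 (adjusted p = 6.1e-20). With IL4CD40 it went from 606, 553, 632 and 797 CPM to 2251, 2205, 2782 and 2569 CPM, a change of 1.86 ± 0.11 (adjusted p = 8.65e-07). Every DSF library was above every vehicle library under both stimuli. In the second experiment Ubb was at 2.56 with LPS and 2.27 with IL4CD40.

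Of 10 genes of MHC class I presentation, which uses the peptides of the immunoproteasome, LPS raised 9 and IL4CD40 raised 2 and lowered 2 against unstimulated cells, and 8 were higher with LPS in the direct comparison, where 29.6%, 30.4% and 22.3% of all genes were higher and 32.1% were lower with IL4CD40. DSF raised 4 and lowered 2 with LPS and raised 4 and lowered 3 with IL4CD40, which is near the shares over all genes (35.1% and 36.0% with LPS, 30.1% and 31.6% with IL4CD40). H2-D1, a class I heavy chain, rose by 1.11 ± 0.043 (adjusted p = 2.22e-17) and 0.98 ± 0.089 (adjusted p = 4.61e-06). Irf1, a transcription factor known to raise the immunoproteasome genes, rose by 0.89 ± 0.043 and 0.59 ± 0.13 in the first experiment and was at -0.33 and -1.05 in the second. Tap1, the peptide transporter whose gene lies head to head with Psmb9, was at -0.065 ± 0.041 (adjusted p = 0.157) with LPS and -0.47 ± 0.14 (adjusted p = 0.0141) with IL4CD40, and was at -1.73 and -1.84 in the second experiment.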

How the data were processed

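Poly-A RNA of 27 B cell libraries was sequenced, 20 in the first experiment and 7 in the second. Before deposit, the authors used Fastp for trimming, HISAT2 2.0.5 for mapping (mm10) and featureCounts 1.5.0-p3 for the count of each gene, and the deposited counts are raw. The authors also derived the deposited FPKM, from gene length and counts. The annotation release and strand setting are not given in the sources used here, so reads of overlapping genes may be assigned to either. The deposited gene length was used only to check the FPKM.

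Groups followed the labels. Each comparison of the first experiment used its 8 libraries (16 for the difference of DSF effects), filterByExpr, TMM and edgeR 4.0.16's quasi-likelihood test (R 4.3.3) with Benjamini-Hochberg adjustment over all genes tested. In the second experiment, log2 ratios used TMM, a prior count of 2, a mean of at least 10 counts and a limit of 1.5-fold, with no test. No test compared the experiments, which were scaled apart. The test was run on simulated counts for the DSF effect with LPS (14154 genes): 98 of 100 genes planted at 1.5-fold and 100 of 100 at 2-fold were found, with 13 false calls. For the difference of the DSF effects 87 and 100 of 100 were found, with 14 false calls. All simulated libraries took their means and spread from the LPS groups with and without DSF. The larger spread of the IL-4+anti-CD40 libraries was left out, so these figures do not carry over to the real difference. Planted genes were drawn only from genes above a minimum mean level.

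Alternatives were DESeq2 1.42.0 and its size factors, total counts, other filters, a minimum fold of 1.5, 1 fit over all 20 libraries, a block for the replicate number and each replicate left out. The comparisons with pairs of unstimulated or IL-4+anti-CD40 libraries were added after seeing the data. Same-numbered replicates mostly did not deviate together (correlations of -0.056 to 0.17, with 3 of 40 pairs above 0.1), so the numbers were not taken as pairs. The highest values, 0.17 and 0.15, were those of replicates 1 and of replicates 4 between IL-4+anti-CD40 with and without DSF. Members named with library values were the catalytic subunits, Psmf1 and the activators other than Psme2b. In each other class they were the genes with the largest and smallest change under DSF with LPS. Further members were named where their call ran against their class or differed between stimuli. Psmc2, Psmc5, Psmc6, Psmd2, Psmd4, Psmd8, Psmd12, Psma6, Psmg2 and Psmg3 were named after their values were seen. The members and lists were chosen with earlier results of these data known. From the list of ubiquitin and shuttle genes, 1 gene is not reported here.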

Additional observations from a re-analysis of the deposited data

Results flagged for a closer look

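In 115 tests of 1 group's 4 libraries for a library far from the others, 2 members stood out, where chance flags about 1 in 20. Psmb4 was at 181.9 CPM in replicate 3 of the IL-4+anti-CD40 group, below the other libraries, and Psmc4 was at 133.4 CPM in replicate 1 of the group with LPS and DSF.

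The DSF effect differed between the stimuli for 6 of 47 members by the test of the difference itself (edgeR's quasi-likelihood test, adjusted over 15130 genes). Over all those genes 7.92% were called higher and 6.96% lower, and the count is to be read beside these shares. The calls of Psma3, Psmd14 and Psme3 were lost when single libraries were left out. Given as the effect with LPS minus that with IL-4+anti-CD40 on the log2 scale, the differences were 0.4582 for Psmd1 (adjusted p = 0.00154), 0.2906 for Psmd11 (adjusted p = 0.00834), 0.3127 for Psmd14 (adjusted p = 0.0332), 0.2374 for Psma3 (adjusted p = 0.0327), 0.2668 for Psme3 (adjusted p = 0.0246) and -0.3185 for Psme4 (adjusted p = 0.00648).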

How the results depend on the processing

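Counts of called members are given as higher and lower. With a minimum change of 1.5-fold, 12 members were higher with LPS against unstimulated cells, 0 were lower with IL-4+anti-CD40, 4 were higher and 0 lower for LPS against IL-4+anti-CD40, and 5 and 4 were called for DSF with LPS, 2 and 4 for DSF under IL-4+anti-CD40, 0 and 0 for the difference of the DSF effects. With total counts, 2 were lower with LPS against unstimulated cells, 34 were lower for LPS against IL-4+anti-CD40, and the difference of the DSF effects had 2 and 2. In the second experiment, total counts gave 11 higher with LPS, 2 lower with IL-4+anti-CD40, 32 lower for DSF with LPS and 0 higher for DSF with IL-4+anti-CD40. Of all 14275 genes there, 2048 were higher with LPS, 4249 lower with IL-4+anti-CD40, 5947 lower for DSF with LPS and 3686 higher for DSF with IL-4+anti-CD40. A mean of at least 50 counts gave 4 higher for DSF with LPS. With unstimulated replicates 1 and 2 only, 2 were lower with LPS. In 1 fit of all 20 libraries, 12 were lower for LPS against IL-4+anti-CD40. The shares of all genes called under the minimum fold, the pairs, the limit of 50 counts and the 1 fit are not given here. The causes of these shifts were not tested. Psmb6 was at -0.0859 for DSF with LPS under total counts (adjusted p 0.101), a scaling that moved the median of all genes from 0.0019 to -0.21.

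Leaving out 1 replicate gave 35 to 38 higher for LPS against unstimulated cells, 37 to 39 for IL-4+anti-CD40, 15 to 24 lower for LPS against IL-4+anti-CD40, 25 to 28 and 17 to 18 for DSF with LPS, 23 to 25 and 14 to 16 for DSF under IL-4+anti-CD40, 2 to 8 and 1 to 2 for the difference of the DSF effects. With the replicate number as a block, DSF with LPS had 28 and 17, DSF under IL-4+anti-CD40 24 and 15, LPS against IL-4+anti-CD40 7 and 16, and the difference of the DSF effects 7 and 1, and 5 of 20 samples correlated best with their own number. Over all single genes and alternatives, 3481 values kept direction and side of the threshold, 177 lost a call, 115 gained one and 1 changed sign. The counts cannot resolve Psma8 and Psmb11.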

Other observations

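The members left out of the tests had a few counts each. Psma8 had 17 counts in all over the 20 libraries of the first experiment, with 0 in 11 of them, and 3 counts over the 7 libraries of the second. Psmb11 had 32 counts in all, with 0 in 10 of the 20 libraries, and 9 counts over the 7 libraries of the second experiment. At this depth their levels could not be compared between conditions.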
